A study of Mus musculus with 8 samples.

Results

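Brown adipose tissue (BAT) of wild-type (WT) and db/db mice aged 8 weeks was profiled by sequencing RNA of the whole sample, and 10 genes of cytokine signalling through JAK kinases and STAT factors were followed in it. They were taken by symbol from a list made for this purpose, in which Jak1 and Jak2 are kinases, Stat3, Stat5a and Stat5b are transcription factors, Socs2, Socs3 and Cish are feedback inhibitors, and Il6st and Ghr are receptor chains. All 10 of them were found among the 31053 Ensembl genes of the count table, 9 had enough counts to be tested, and Socs3 did not.

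The labels gave 4 libraries of genotype WT and 4 of genotype DB_DB, all of strain C57BL6/J, and the methods describe male mice whose tissue was taken after fasting. The db/db mice carried the Lepr db mutation in every cell, on a background that the methods name as B6.BKS(D). They were bought from a supplier that the study gives for the WT mice in one place and not in another. If the WT mice came from elsewhere, genotype and source cannot be told apart. The labels named both BAT and the stromal vascular fraction as the origin of the RNA, and the transcripts of mature adipocytes were abundant in every library. Summed over Adipoq, Plin1, Fabp4, Lipe and Pparg, the WT libraries held 8179 to 14688 CPM (counts scaled to a common library size) and the db/db libraries 13864 to 18848 CPM. Total counts lay between 2374079 and 3240074 per library, and 3 counts, taken as the detection floor, corresponded to between 0.903 and 1.33 CPM. Detection floors cover counting error alone, because PCR copies may be part of the counts, whereas the 95% intervals of log2 fold changes include the spread between libraries. The study describes the libraries of a genotype as coming from separate mice, so the spread between libraries includes that between animals.

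A cytokine receptor of this class has no enzyme of its own. Binding of the ligand brings receptor-bound JAK kinases together, these phosphorylate the receptor tail, and STAT proteins dock there, are phosphorylated and move to the nucleus. The leptin receptor works mainly through JAK2 and STAT3 and induces Socs3. The growth hormone receptor works through JAK2 and the STAT5 proteins and induces Socs2, Cish and, in many tissues, Igf1. The gp130 chain encoded by Il6st serves interleukin 6, leukaemia inhibitory factor and related ligands through JAK1 and STAT3. SOCS proteins and CISH bind phosphorylated receptors or JAKs and shut the signal off, so that their transcripts are commonly read as a record of recent STAT activity.

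STAT dimers bind the palindrome TTCNNNGAA, in which N is any base, and this motif reads the same on both strands. It was searched in windows from 250 bases before to 50 bases after the start site, taken from RefSeq on GRCm38.p6, the build that mm10 names. Windows were found for 9 of the 10 genes. Socs2 had none in the reference used, so its promoter was not searched. Of the 9 genes 2 held the motif, Cish and Socs3, against 9.55% of 27025 genes with a window. The windows of these inhibitors, because they hold the motif, and of Ghr, which rose and has no match in either of its 2 windows (the first is printed), are shown 5′ to 3′ with every match in capitals.
Cish, plus strand of chr9:107296409-107296708: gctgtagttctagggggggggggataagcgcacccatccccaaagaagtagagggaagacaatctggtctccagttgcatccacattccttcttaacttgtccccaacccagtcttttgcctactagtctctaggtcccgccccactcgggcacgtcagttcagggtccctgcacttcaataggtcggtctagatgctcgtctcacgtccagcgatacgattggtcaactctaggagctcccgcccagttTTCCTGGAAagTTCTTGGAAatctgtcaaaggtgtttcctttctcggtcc
Socs3, minus strand of chr11:117969317-117969616: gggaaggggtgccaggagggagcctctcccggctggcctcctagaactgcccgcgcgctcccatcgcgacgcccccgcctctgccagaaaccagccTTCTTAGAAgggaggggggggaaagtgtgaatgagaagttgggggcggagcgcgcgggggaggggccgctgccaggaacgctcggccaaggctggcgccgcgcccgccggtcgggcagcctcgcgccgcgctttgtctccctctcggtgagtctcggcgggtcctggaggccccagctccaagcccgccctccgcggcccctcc
Ghr, minus strand of chr15:3583303-3583602: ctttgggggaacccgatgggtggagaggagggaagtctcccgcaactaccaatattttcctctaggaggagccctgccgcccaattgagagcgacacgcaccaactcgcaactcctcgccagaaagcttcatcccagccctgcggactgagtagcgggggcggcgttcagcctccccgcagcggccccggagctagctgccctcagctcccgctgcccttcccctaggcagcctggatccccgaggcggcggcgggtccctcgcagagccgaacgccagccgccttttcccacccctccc
In Cish a pair of matches lay at bases 251 to 259 and 262 to 270 of the window, where base 251 is the first transcribed base. In Socs3 the match covered bases 97 to 105. The related spacing TTCNNNNGAA, which can overlap the first motif and was present in 8.01% of genes, had 0 matches in the windows of these 9 genes. A match says that the letters are present and nothing about binding in this tissue.

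Across all genes, 2568 of 9264 tested differed between db/db and WT in edgeR's quasi-likelihood test at an adjusted p under 0.05, which is 27.7%, with 15.8% higher and 11.9% lower in db/db. Of the 9 signalling genes tested, 4 passed. Ghr rose, and Socs2, Cish and Stat5a fell. The filter asks for about 10 counts in 4 libraries, and Socs2 and Cish met this level in 4 WT and 3 db/db libraries, so that they entered the test through the genotype in which they were higher. The median log2 fold change of the 9 was −0.29, and that of all genes tested was 0.01. The filter also left out Socs3, which was higher in db/db. The count and the median are therefore not set against those of all genes as a result. Levels of 3 of the 9, Ghr, Socs2 and Stat5a, did not overlap between the genotypes, as was the case for 28.1% of all genes tested.

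**Figure D1:**
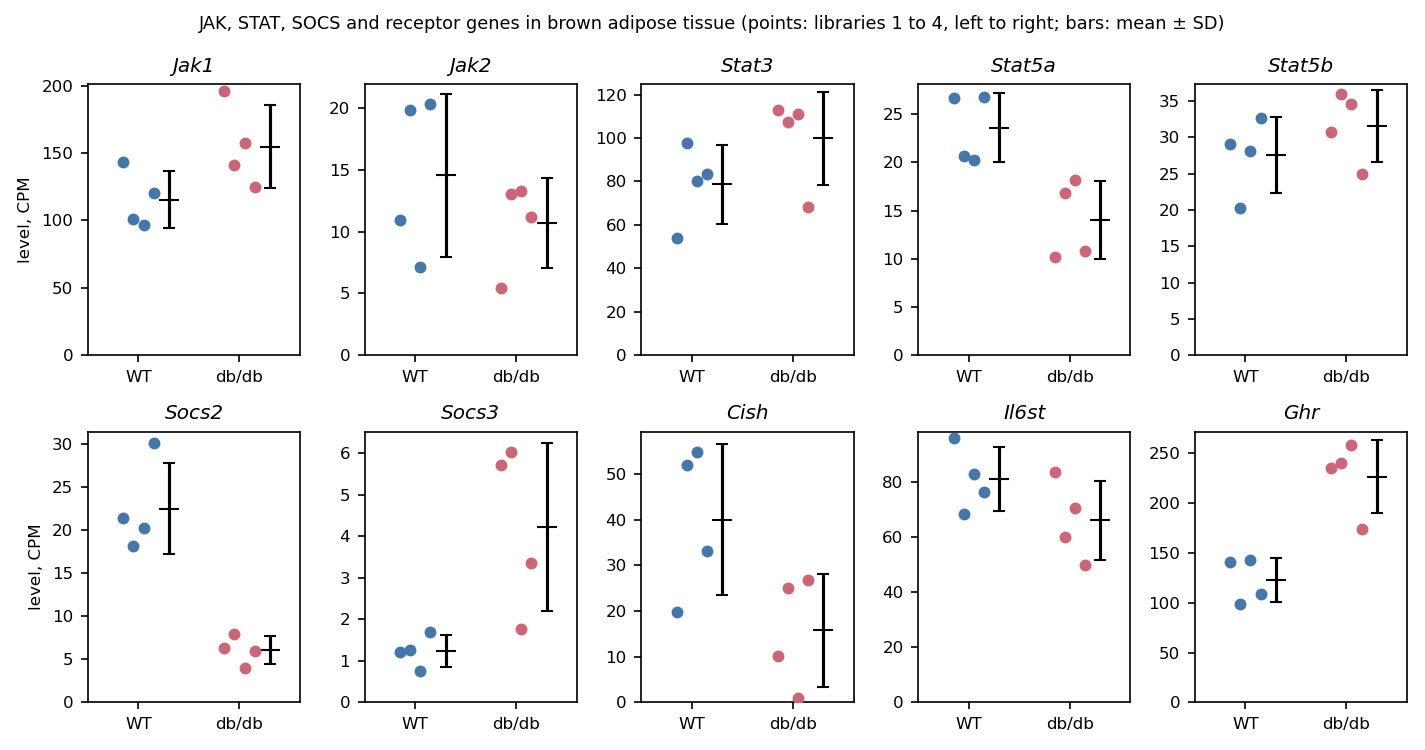
Level of each of the 10 genes in CPM (vertical axis, from 0) in the 4 WT and 4 db/db libraries, one panel per gene, with points for libraries 1 to 4 from left to right and bars for the mean ± SD. The genotypes are apart for Stat5a, Socs2, Socs3 and Ghr, and they overlap for the other 6 genes, with a db/db library of Cish near 0.

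Ghr encodes the growth hormone receptor. Its gene (ENSMUSG00000055737) lies on chromosome 15, 3317760 to 3583492. Its level was 141.2, 98.8, 142.8 and 109.1 CPM in WT libraries 1 to 4 and 235.0, 240.5, 258.0 and 173.7 CPM in the db/db libraries. Every db/db library was above every WT library. The mean rose from 123.0 ± 22.4 to 226.8 ± 36.7 CPM (SD of 4 libraries each; log2 change 0.88 ± 0.16 SE, adjusted p by edgeR 0.000433). The call held in each of the 8 fits without 1 library. It was lost with the skeletal muscle score as covariate, where the log2 fold change was 0.87 and the adjusted p 0.0650.

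Socs2 encodes an inhibitor that is best known for restraining growth hormone signalling. Its gene (ENSMUSG00000020027) lies on chromosome 10, 95385362 to 95417180. WT libraries 1 to 4 had 21.4, 18.1, 20.3 and 30.1 CPM, and the db/db libraries had 6.32, 7.95, 3.99 and 5.95 CPM. All db/db libraries were below all WT libraries, with 9 to 25 counts against 43 to 71. The mean fell from 22.5 ± 5.27 to 6.05 ± 1.63 CPM (SD, n = 4 each), a log2 fold change of −1.86 (± 0.27 SE, adjusted p by edgeR 6.09e-05). The fall passed in all 8 fits without 1 library and with the muscle score as a covariate (log2 fold change −2.03, adjusted p 0.00779). Of the 75-base words in its annotated transcripts, 3.16% also occur in transcripts of other genes.

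The ligand-binding chain and this inhibitor moved in opposite directions in the same libraries. The ratio of Socs2 to Ghr counts within a library, a measure chosen after the values were seen, was 0.152, 0.184, 0.142 and 0.276 in WT and 0.0269, 0.0331, 0.0155 and 0.0343 in db/db. The genotypes did not overlap, which follows from the opposite shifts of its 2 genes. The ratio of Cish to Ghr counts, computed in the same way, was 0.140, 0.526, 0.384 and 0.304 in WT and 0.0435, 0.104, 0.00344 and 0.154 in db/db. Here WT library 1 lay below db/db library 4. Such ratios do not depend on how the libraries were scaled, and no p is given for them because the genes were paired with their values known.

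Cish encodes the cytokine-inducible SH2 protein, another inhibitor under the control of STAT5. Its gene (ENSMUSG00000032578) is on chromosome 9, 107296026 to 107302784. It had 19.8, 51.9, 54.9 and 33.1 CPM in WT and 10.2, 25.1, 0.887 and 26.8 CPM in db/db. WT library 1 lay below 2 of the db/db libraries, and db/db library 3 held 2 counts where the other libraries of its genotype held 34 to 79. The mean fell from 39.9 ± 16.5 to 15.8 ± 12.4 CPM (SD of 4 libraries each; log2 change −1.32 ± 0.47 SE, adjusted p by edgeR 0.0430). The direction was the same in every fit run, but the call was lost with DESeq2 (adjusted p 0.244), with the muscle score as a covariate (log2 fold change −0.57, adjusted p 0.708) and in 5 of the 8 fits without 1 library. Without db/db library 3 the log2 fold change was −0.96 and the adjusted p 0.0517. With a coefficient of variation of 41.3% in WT and 78.7% in db/db, Cish had the widest spread of the 9 tested genes within db/db. An antisense gene and a pseudogene overlap its exons, and 7.93% of its 75-base words are shared with them. The antisense gene, Gm17041, had 0 counts in every library.

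Socs3 encodes the inhibitor that STAT3 induces, also downstream of leptin. Its gene (ENSMUSG00000053113) lies on chromosome 11, 117966079 to 117970047, and its counts were too few for the filter. WT libraries 1 to 4 had 3, 3, 2 and 4 counts, and the db/db libraries had 19, 19, 4 and 9. In CPM these were 1.21, 1.27, 0.752 and 1.70 in WT, at about the detection floor, and 5.72, 6.05, 1.77 and 3.35 in db/db. The CPM ranges did not overlap, although db/db library 3 was close to WT library 4. On the log2 CPM scale the db/db mean exceeded that of WT by 1.24 (exact two-sided permutation p = 0.0286, n = 4 each, the smallest the design allows). Pooled over libraries the ratio was 3.67, with a 95% interval of 1.93 to 7.57 for counting error. When every gene with at least 1 count was tested, 16410 in all, Socs3 passed (log2 change 1.73 ± 0.64 SE, adjusted p by edgeR 0.0384). Socs2 and Cish were lower and Socs3 was higher in db/db.

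The STAT genes lie next to each other on chromosome 11, within 158810 bases. Stat5b (ENSMUSG00000020919) lies at 100780731 to 100850724, Stat5a (ENSMUSG00000004043) at 100859351 to 100885169 and Stat3 (ENSMUSG00000004040) at 100885098 to 100939540. Stat5a and Stat3 run towards each other and share 72 exonic bases at their 3′ ends, where reads cannot be told apart without strand. Stat5a and Stat5b encode closely related factors, and 387 words of 75 bases are common to both, which is 5.12% of those of Stat5a and 6.99% of those of Stat5b. These are shares of the annotated sequence and not of reads, and how reads in it were counted is not stated, which leaves their counts uncertain.

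Stat5a was the STAT gene of the 3 that passed the test. It had 26.7, 20.7, 20.3 and 26.7 CPM in WT and 10.2, 16.9, 18.2 and 10.8 CPM in db/db. No db/db library reached the lowest WT library. The mean fell from 23.6 ± 3.61 to 14.0 ± 4.09 CPM (SD of 4 libraries each; log2 change −0.76 ± 0.24 SE, adjusted p by edgeR 0.0226). The fall was below the threshold of the test in 4 of the 8 fits without 1 library, with adjusted p of up to 0.0642, and with the muscle score as a covariate (log2 fold change −0.65, adjusted p 0.434).

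Stat5b did not pass. Its level was 29.1, 20.3, 28.2 and 32.7 CPM in WT and 30.7, 35.9, 34.6 and 24.9 CPM in db/db, and the genotypes overlapped. The log2 fold change was 0.19, with a 95% interval of −0.21 to 0.60 and an edgeR adjusted p of 0.50. The ratio of Stat5a to Stat5b counts within a library, chosen after the values were seen, was 0.917, 1.02, 0.720 and 0.818 in WT and 0.333, 0.469, 0.526 and 0.433 in db/db. The mean ratio was 0.869 ± 0.129 for the WT libraries and 0.440 ± 0.0808 for those of db/db (± SD, n = 4 each). The ratios of the genotypes did not overlap, and no p is given because the pair was chosen for its values.

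**Figure D2:**
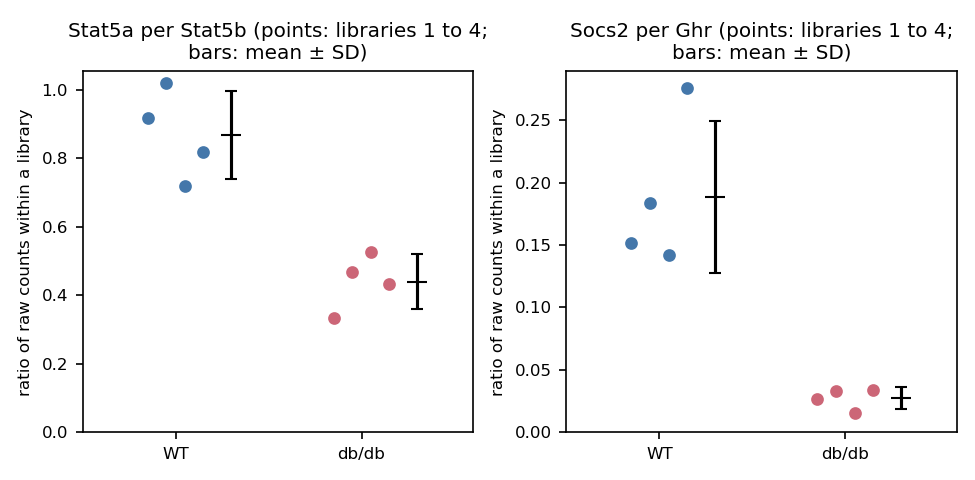
Ratio of raw counts within a library (vertical axes, from 0) for Stat5a to Stat5b and for Socs2 to Ghr, with points for libraries 1 to 4 of each genotype and bars for the mean ± SD. The 4 db/db libraries lie below the 4 WT libraries in both panels, at 0.333 to 0.526 against 0.720 to 1.02 for the STAT5 genes.

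Stat3 carries the signals of leptin and of the gp130 cytokines. It had 53.8, 97.5, 80.0 and 83.6 CPM in WT and 113.1, 107.2, 111.3 and 68.1 CPM in db/db. The first 3 db/db libraries were above all WT libraries and library 4 was below 3 of them. The log2 fold change of 0.34 did not pass (SE 0.19, 95% interval −0.05 to 0.74, edgeR adjusted p 0.188). It passed without db/db library 4 (log2 fold change 0.49, adjusted p 0.0491) and turned to −0.25 with the muscle score as a covariate (adjusted p 0.695).

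The kinases did not pass either. Jak1 (ENSMUSG00000028530, chromosome 4, 101152367 to 101265282) serves gp130 and interferon receptors. Its level was 143.7, 101.3, 96.9 and 120.1 CPM in WT and 195.8, 140.9, 157.8 and 124.6 CPM in db/db. A pair of db/db libraries exceeded every WT library. The log2 fold change was 0.42 (SE 0.16, 95% interval 0.08 to 0.77, edgeR adjusted p 0.0618). Of the 8 fits without 1 library 2 passed, and of the 11 other alternatives 2. With the muscle score as a covariate the estimate was 0.13 (edgeR adjusted p 0.846). It passed without WT library 1 (adjusted p 0.0301), without db/db library 4 (adjusted p 0.0316), with a replicate block (adjusted p 0.0391) and with at least 10 counts required in every library (adjusted p 0.0351).

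Jak2 (ENSMUSG00000024789, chromosome 19, 29251828 to 29313080) is the kinase of the leptin and growth hormone receptors. It had 10.9, 19.8, 7.14 and 20.4 CPM in WT and 5.41, 13.0, 13.3 and 11.2 CPM in db/db, on 18 to 48 counts per library. The WT libraries enclosed 3 of the db/db libraries. The log2 fold change was −0.45 with a 95% interval of −1.18 to 0.29 (edgeR adjusted p 0.371), an interval wide enough to hold no change and a fall of more than 1 on the log2 scale.

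Il6st (ENSMUSG00000021756, chromosome 13, 112464070 to 112510086) encodes gp130. It had 95.9, 68.4, 83.0 and 76.4 CPM in WT and 83.6, 60.1, 70.5 and 49.8 CPM in db/db. The genotypes overlapped, with 2 db/db libraries below all of WT. The log2 fold change was −0.29 (SE 0.17, 95% interval −0.65 to 0.06, edgeR adjusted p 0.211).

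**Figure D3:**
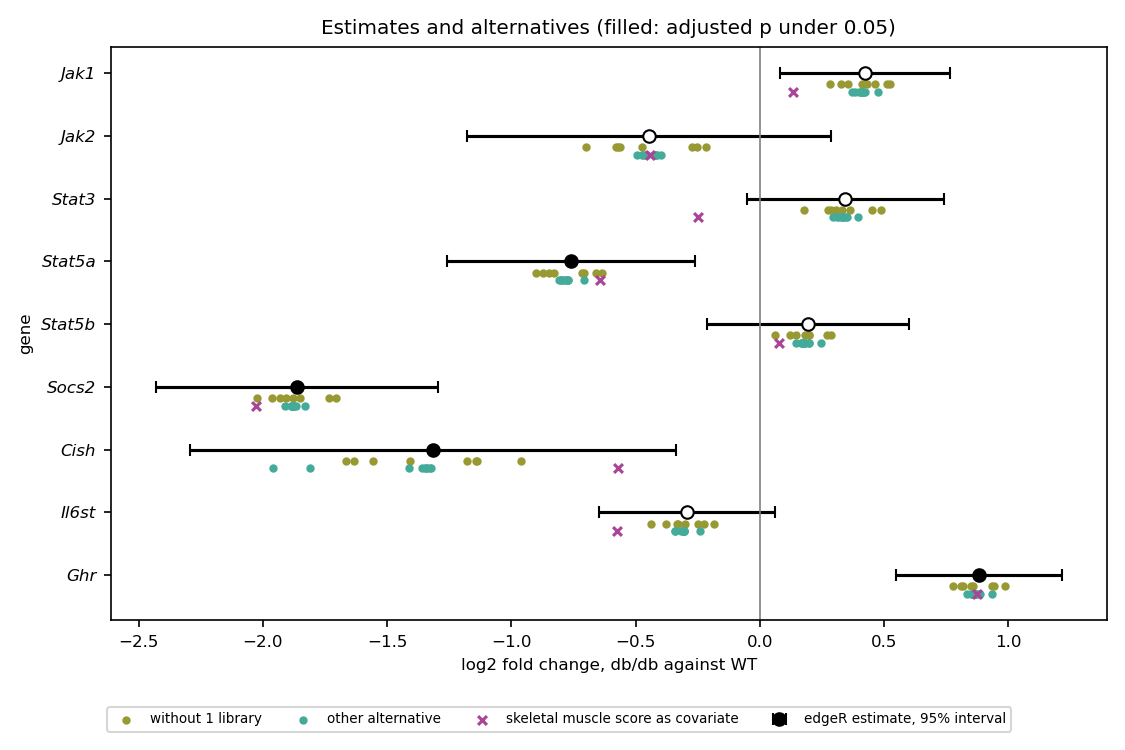
Log2 fold change of db/db against WT for the 9 tested genes (horizontal axis), with the edgeR estimate and its 95% interval in black, filled where the adjusted p is under 0.05, and with the estimates under the alternatives as small points below it. Socs2 and Ghr stay away from 0 under every alternative that tested them (the filter of 10 counts in every library removed Socs2), while Cish moves between −1.96 and −0.57 and Stat3 crosses 0 with the skeletal muscle score as covariate, drawn as a cross.

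Markers of several cell types moved with genotype in the same libraries. In bulk tissue, fewer cells of a type and less RNA per cell cannot be told apart. Of 12 macrophage markers 11 were higher in db/db, and their summed level was 170.9 to 227.4 CPM in WT and 817.4 to 1431 CPM in db/db. Of 15 skeletal muscle markers 14 were higher, with sums of 452.8 to 1600 CPM and 2337 to 11637 CPM. All 8 fibroblast markers were higher, 3 of 8 endothelial markers (7 tested) were lower, and 4 of 6 brown adipocyte markers (5 tested) were lower. For comparison, 15.8% of all genes tested were higher and 11.9% lower. None of the cell type markers was at 0 in all libraries except the B cell gene Cd79a. Of 6 neutrophil markers 2 were tested. S100a8 was higher, with 1 to 11 counts in WT and 27 to 58 in db/db, and S100a9 did not pass (edgeR adjusted p 0.162). The lymphocyte markers were too low to be tested. The part of these shifts in the values of the 10 genes was not tested beyond the muscle score. The muscle score is itself higher in every db/db library, and with it 619 genes and 1 of the 9 signalling genes, Socs2, differed.

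Around the 10 genes, 109 other genes of the pathway were grouped into 8 lists by role. Of these, 63 could be tested, 16 were higher and 3 lower in db/db, and 44 did not pass. This makes 30.2% of those tested, near the 27.7% of all genes. The other 46 had too few counts, 14 of them with 0 counts in all libraries.

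Among the ligands 1 of 21 could be tested. Lep, which encodes leptin, was at 8.498, 12.2, 13.5 and 6.79 CPM in WT and at 466.6, 556.7, 487.6 and 327.7 CPM in db/db (log2 change 5.47 ± 0.23 SE, adjusted p by edgeR 2.44e-11). Its receptor gene Lepr had 0 counts in all 8 libraries, so that the genotype could not be checked on this transcript, and 3 counts would correspond to at most 1.33 CPM. Il6, Osm, Gh, Prl and Il10 also had 0 counts throughout, which at this depth does not show that they are absent.

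Of 28 other receptor genes 13 were tested, 4 rose and 0 fell, and these 30.8% are near the 27.7% of all genes. Csf2ra, the ligand-binding chain for the growth factor GM-CSF on myeloid cells, rose from 22.02 ± 7.19 to 94.1 ± 30.5 CPM (SD of 4 libraries each; log2 change 2.09 ± 0.24 SE, adjusted p by edgeR 6.87e-06). The macrophage markers moved with it, from a sum of 170.9 to 227.4 CPM in WT to one of 817.4 to 1431 CPM in db/db, and their part in it was not tested. Osmr, the oncostatin M receptor that pairs with gp130, had 3 to 13 counts in WT and 15 to 48 in db/db, entering the test through the db/db libraries (log2 change 1.25 ± 0.41 SE, adjusted p by edgeR 0.0310), a call that was lost in 5 of the 8 fits without 1 library, with a replicate block (adjusted p 0.0646) and with the muscle score (log2 change 0.23, adjusted p 0.885). Il4ra, the interleukin 4 receptor, rose by 1.17 and Ifngr1, an interferon gamma receptor chain, by 0.49 on the log2 scale, and the call of Ifngr1 was lost in 3 of the 8 fits without 1 library. With the muscle score both calls were lost, Il4ra at 0.14 (adjusted p 0.899) and Ifngr1 at 0.48 (adjusted p 0.316). Ifnar2, a type I interferon receptor chain, did not pass, at 104.1 ± 15.8 CPM in WT and 99.3 ± 7.16 CPM in db/db (SD, n = 4 each; 95% interval of the log2 fold change −0.36 to 0.23).

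Of the remaining JAK and STAT genes 1 of 5 tested rose and 0 fell, against 15.8% and 11.9% of all genes. Stat6, the factor of interleukin 4 signalling, was at 9.71, 11.8, 11.3 and 16.6 CPM in WT and at 27.1, 25.1, 30.6 and 26.4 CPM in db/db (log2 change 1.14 ± 0.21 SE, adjusted p by edgeR 0.000615). It moved in the same direction as Il4ra, and the macrophage markers moved with both, whose part was not tested. The call was lost with the muscle score (log2 change 0.84, adjusted p 0.182). Its exons share 40 bases with Nab2 on the other strand.

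The other SOCS genes gave 0 calls among 4 tested, too few to set against the 27.7% of all genes. Socs7, a family member expressed in many tissues, was at 32.2 ± 4.15 CPM in WT and 25.2 ± 4.38 CPM in db/db (SD of 4 libraries each; log2 change −0.35, edgeR adjusted p 0.178). Among 11 phosphatases, PIAS proteins and SH2B adaptors 1 rose and 1 fell, which is 18.2%. Sh2b2, an adaptor of the insulin receptor and of JAK2, fell from 113.5 ± 19.1 to 46.2 ± 13.0 CPM (SD of 4 libraries each; log2 change −1.30 ± 0.19 SE, adjusted p by edgeR 6.35e-05), a call lost with the muscle score (log2 change −0.83, adjusted p 0.0810). The gene that rose was Ptpn6, named after its value was seen, which encodes a phosphatase of blood cells. It entered the test through the db/db libraries, with 4 to 7 counts in WT and 13 to 24 in db/db, and was at 2.33 ± 0.489 CPM in WT and 6.06 ± 1.35 CPM in db/db (SD, n = 4 each). Ptpn11, the phosphatase SHP2, differed by 0.15 on the log2 scale (edgeR adjusted p 0.505).

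Targets of the STAT factors were taken from general knowledge of the pathway and were not measured as targets here. Of 6 tested growth hormone and STAT5 targets 2 rose and 0 fell, where 15.8% of all genes tested rose and 11.9% fell. Of the 2, Ccnd1 entered the test through the db/db libraries, so the count is not set against that of all genes as a result. Ccnd1, the cyclin D1 gene, rose from 5.25 ± 2.24 to 155.7 ± 43.5 CPM (SD of 4 libraries each; log2 change 4.87 ± 0.27 SE, adjusted p by edgeR 1.78e-09), although its exons overlap a gene on the other strand. It met the level of the filter in 3 WT and 4 db/db libraries. Igfbp3, which encodes a carrier of insulin-like growth factors, rose by 1.0 on the log2 scale (± 0.28 SE, adjusted p by edgeR 0.0127), a call lost with the muscle score (log2 change 0.64, adjusted p 0.521). Igf1 itself varied widely, at 70.8, 27.4, 130.4 and 47.1 CPM in WT and 100.5, 69.7, 36.8 and 73.7 CPM in db/db. Its log2 fold change was 0.03 with a 95% interval of −0.69 to 0.75.

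Of 11 tested STAT3 targets 6 rose and 2 fell, with a median log2 fold change of 0.58. Of all genes tested 15.8% rose and 11.9% fell, and their median was 0.01. Of the 6 that rose, Serpina3n and Saa3, the latter named after its values were seen, entered the test through the db/db libraries, with 3 and 0 WT libraries at the level of the filter, so the count and the median are not set against those of all genes as a result. Hp, the haptoglobin gene, rose from 272.7 ± 50.4 to 1462 ± 178.6 CPM (SD of 4 libraries each; log2 change 2.42 ± 0.16 SE, adjusted p by edgeR 1.13e-08). Serpina3n and Lrg1, which encode secreted acute-phase proteins, rose by 3.0 and 1.34 on the log2 scale, and Serpina3n by 2.28 with the muscle score (adjusted p 0.00386). Pim1, a kinase gene that both STAT3 and STAT5 induce, was at 103.6, 176.8, 118.4 and 116.7 CPM in WT and at 34.6, 51.2, 29.3 and 25.7 CPM in db/db. The log2 change was −1.86 (± 0.21 SE, adjusted p by edgeR 4.87e-06). Cebpb, a transcription factor gene, did not pass (log2 fold change −0.65, edgeR adjusted p 0.0850). Under the 11 alternatives with all libraries its log2 fold change was −0.70 to −0.29 and its adjusted p up to 0.752, with 2 passing. Of the 8 fits without 1 library 2 passed for Cebpb. It passed as lower when the filter on low counts was relaxed to 1 count (adjusted p 0.000619), with a replicate block (adjusted p 0.00512), without WT library 1 (adjusted p 0.0179) and without db/db library 4 (adjusted p 0.0160). Of 12 tested interferon targets 1 rose, B2m, the invariant chain of MHC class I (log2 change 0.47 ± 0.15 SE, adjusted p by edgeR 0.0243, lost in 4 of the 8 fits without 1 library and with the muscle score, adjusted p 0.559), and Irf1 had a log2 fold change of −0.17 (edgeR adjusted p 0.542).

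**Figure D4:**
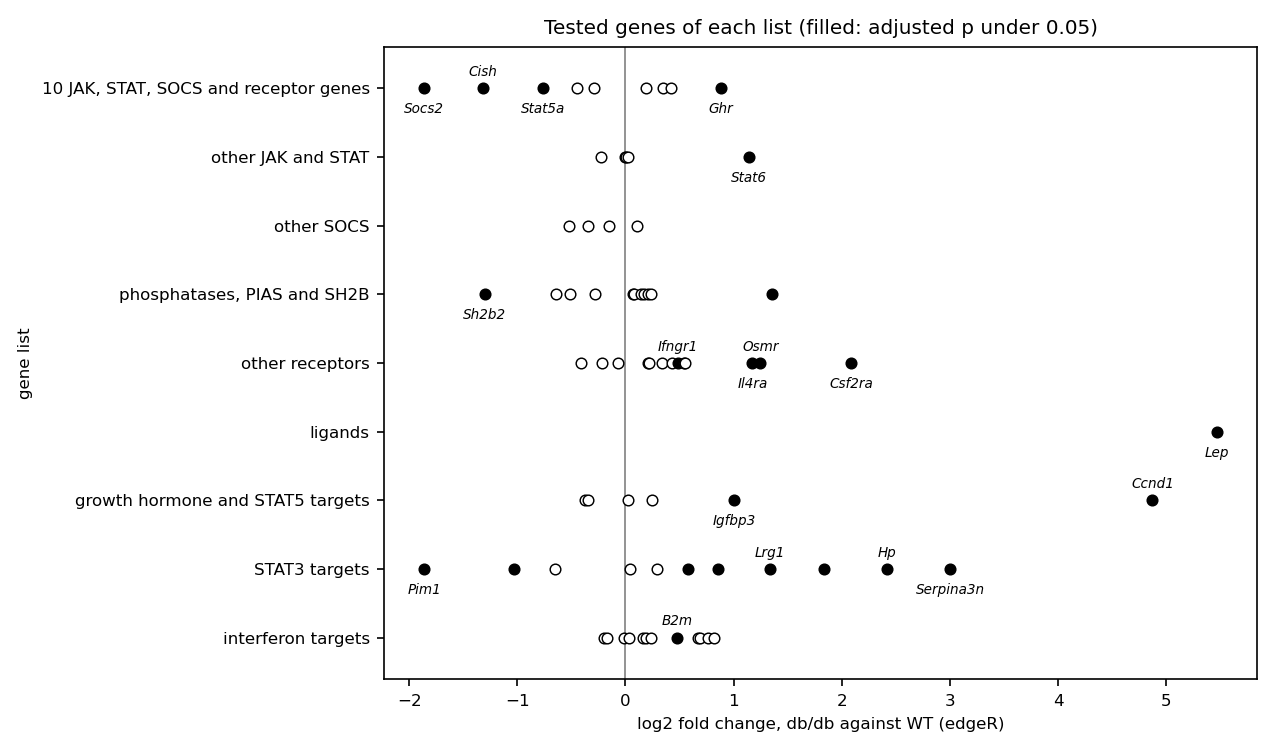
Log2 fold change of db/db against WT (horizontal axis) for the tested genes of the 10-gene group and of the 8 pathway lists, 1 row per list, with filled points for an adjusted p under 0.05. Lep at 5.47 and Ccnd1 at 4.87 lie farthest to the right, and Socs2 and Pim1, both at −1.86, farthest to the left.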

How the data were processed

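Raw counts per Ensembl gene were used as deposited. Per the methods the authors trimmed reads with bbduk, aligned them to mm10 with STAR and counted them with HTSeq-count, while the submitters' processing notes also name Trimmomatic, HISAT2 and DESeq2. Strand, molecular identifiers and shared reads are not described in the sources used here. The authors also deposited log2 values, each a count times a constant of its library plus 1, which served in 1 alternative. Of 31053 genes 31011 matched GENCODE M21 (GRCm38), and the rest held at most 0.00213% of a library.

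Genes were filtered with filterByExpr (minimum count 10, minimum total 15) and scaled by TMM. CPM are relative to the counts in tested genes times the TMM factor. Genotype was tested with edgeR 4.0.16 in R 4.3.3 by the quasi-likelihood F test, with Benjamini-Hochberg adjustment over all genes at 0.05. Standard errors and 95% intervals came from the F statistic. Genes under the filter were compared by an exact permutation test over 70 splits of log2 CPM (prior count 2). The edgeR procedure was tested on simulated data. Alternatives were DESeq2 1.42.0, limma 3.58.1 (voom, and on the deposited log2 values), other scalings and filters, a skeletal muscle score (mean log2 CPM of 15 markers), a replicate block and fits that omit a library.

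The 10 genes and all lists were chosen with earlier results of these data known. Named are the 10 genes, and from each list up to 4 genes that passed with the largest change and at least 5 CPM on average, the gene with the highest mean that did not pass, Lep and Lepr. From this rule 1 gene is not reported here, though the counts over lists include it. Libraries were grouped by their titles. In every pair of the same genotype they differed by more than counting error (lowest chi-square divided by its degrees of freedom, 4.34). The sample sheet was not used here. Promoter windows came from RefSeq (GRCm38.p6) and 75-base words from the GENCODE transcripts.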

Additional observations from a re-analysis of the deposited data

Results flagged for a closer look

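In 4 of 64 sets of 4 libraries a library stood apart from the rest in Dixon's test (95% critical value), where chance gives about 3.2. Stat3 in db/db library 4 was at 68.1 CPM (183 counts) where the rest of its genotype lay at 107.2 to 113.1 CPM. Irf1 in the same library was at 23.4 CPM (63 counts) against 34.7 to 36.4 CPM. Csf2ra in WT library 3 was at 32.7 CPM (87 counts) against 17.4 to 19.8 CPM. The mitochondrial share of counts in db/db library 1 was 30.7%, where the rest of its genotype had 36.8 to 37.6%. Its skeletal muscle markers had a geometric mean of 381.8 CPM, where db/db libraries 2 to 4 had 71.2 to 176.8 CPM. Without db/db library 1 the adjusted p in edgeR was 0.0628 for Stat5a (log2 fold change −0.64 in place of −0.76) and 0.0838 for Cish (−1.14 in place of −1.32), while Ghr and Socs2 still passed.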

How the results depend on the processing

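When the muscle score was added as a covariate, 619 genes differed in place of 2568 (453 higher and 166 lower, in place of 1466 and 1102), 1 of the 9 signalling genes in place of 4, and 7 of the pathway genes in place of 19. The score is higher in all db/db libraries, and the cause was not tested. Under the other 10 alternatives that kept every library, these counts lay within 1.5 times of the main ones. The fits without 1 library gave from 2236 to 2483 genes, from 2 to 5 signalling genes and from 16 to 19 pathway genes. The 2 signalling genes left without WT replicate 4 or without db/db replicate 1 were Ghr and Socs2.

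With a replicate block 2557 genes, 5 signalling genes and 19 pathway genes differed. Among the named genes Jak1 (adjusted p 0.0391) and Cebpb (adjusted p 0.00512) were added and Osmr (adjusted p 0.0646) was lost. Same-numbered libraries are different animals, their deviations correlated at −0.078 to 0.049, and 3 of 8 libraries correlated best with their own number.

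Of 29 named genes tested, 12 of 314 comparisons under alternatives with all libraries became weaker, 4 stronger and 2 reversed, and without the muscle score 2, 4 and 1 of 285. Leaving out a library made 21 of 232 weaker, 5 stronger and 3 reversed. The reversals all concern genes that did not pass. Stat3 reached −0.25 with the muscle score. Igf1 was at −0.0216 with every gene with a count tested and from −0.25 to 0.52 without 1 library. Requiring at least 10 counts in every sample removed Socs2 and Cish. Counts of 0 to 4, as for Socs3 in WT, are at the limit of this depth.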
